A study of Bos taurus with 8 samples.

Results

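The genes described here are 4 nuclear receptors of the fatty acid sensing pathway (PPARG, PPARD, PPARA and RXRA) and 5 genes for the uptake and carriage of lipid (OLR1, CD36, SCARB1, FABP3 and FABP5). They are 9 of 15229 named genes on the array, with 11 of its 43794 probes: 3 for CD36 and 1 for each of the others. Their probes were found by gene symbol, and the genes were chosen by their glucose/control ratios and those of related genes on these same arrays. Those ratios are therefore given as a description, with no test, and they support nothing by themselves. The samples were bovine blastocysts of dairy breeds, produced from slaughterhouse ovaries by maturation, fertilization and culture in vitro. The glucose group was kept in 5 mM glucose from day 0 to day 3 and the control group in 0.2 mM. Both then grew to blastocysts in the usual culture medium and were collected 180 h after fertilization, and bovine serum albumin from the same supplier is given for both. Each group had 4 pools of 10 embryos, so a value is an average over embryos of unstated sex and quality.

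Peroxisome proliferator-activated receptors (PPARs) are transcription factors that bind fatty acids and their derivatives, and they act on DNA as pairs with a retinoid X receptor such as RXRA. Their targets include genes for the uptake, storage and oxidation of fatty acids, and CD36 and OLR1 are among the targets described for PPARG in macrophages and adipocytes. The blastocyst's outer layer, the trophectoderm, takes up lipid from its surroundings, and PPARG is required in mice for the placenta that this layer later helps to form.

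Each array carried a glucose pool in one dye and a control pool in the other, and the arrays of one number carried opposite dyes. The 8 arrays were read as 4 replicates of 2 arrays each, a pairing that is inferred. A ratio is log2(glucose/control), the mean of the 2 arrays of a replicate, and is above 0 where the glucose pool was brighter after normalization. The order of the raw intensities can differ. A channel counted as above background when its raw intensity passed a threshold set by 153 negative control spots, between 108 and 232 scanner units. Between 70.6% and 83.6% of probes per array passed it in one channel or both. The tests covered 35451 probes, 10 of the 11 member probes among them. Trophectoderm markers were present, with 10 of 11 above background in all 16 channels, as were 3 of 5 inner cell mass markers. The number of arrays limits the precision. By limma with Benjamini-Hochberg adjustment, 0% of the tested probes passed 0.05 for glucose over control, with a lowest adjusted p of 0.977, and 856 had an unadjusted p under 0.05. None of the 10 member probes tested was therefore called.

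Of the 10 member probes tested, 7 had a mean ratio above 0 and 3 below, with a median of 0.04. In all tested probes, 49.8% were above 0 and the median was -0.0003. One member probe, for CD36, was above 0 in all 4 replicates, where 5.2% of tested probes were. For the opposite direction the count was 0 member probes, where 5.36% of tested probes were below 0 in all 4 replicates. Because the ratios chose the genes, nothing is read from these counts.

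**Figure D1:**
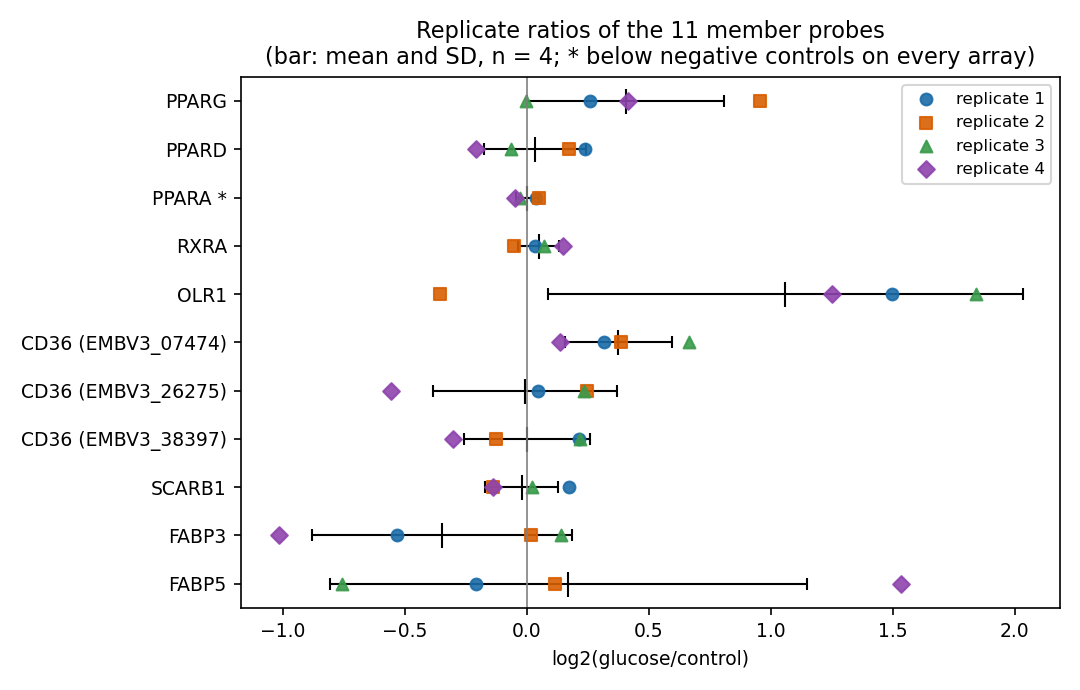
Log2(glucose/control) of the 11 member probes, with 1 symbol for each of the 4 replicates, and with the mean (tick) and SD (bar, n = 4). OLR1 has 3 replicates between 1.25 and 1.84 and replicate 2 at -0.35, FABP5 spans -0.76 to 1.53, and the PPARA probe, marked with an asterisk, was below the negative controls on every array.

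Among the receptors, PPARG, the member of the family best known from adipocytes and trophoblast, had the highest mean ratio. Its ratios were 0.26, 0.95, -0.00 and 0.41 in replicates 1 to 4. Replicate 2 stood highest, replicate 3 was at 0, and the other two lay between them. The mean was 0.41 ± 0.40 (SD, n = 4), or 1.33-fold, with an SD as large as the mean. The ratio was above 0 on 7 of the 8 arrays, and the arrays of a pair differed by at most 0.14. In replicate 2, where the ratio exceeded that of 99.84% of tested probes, the raw intensity was 258 in the glucose channel against 189 in the control channel on 1 array. On the dye-swapped array it was 305 against 141. The probe was dim, with raw intensities of 141 to 305, although all 8 glucose channels and all 8 control channels were above background. The control channels of replicate 2 passed narrowly, at 189 and 141 against thresholds of 184 and 137. Those of replicate 4 were also close, at 151 and 256 against thresholds of 150 and 232. In replicate 4 the raw intensity was higher for control on both arrays, 151 against 147 for glucose and 256 against 201. Its ratio above 0 thus arose with normalization. Without replicate 2 the mean fell to 0.22. In pooled embryos, fewer cells that express a gene and less of its RNA per cell cannot be told apart, and this holds for every ratio here.

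PPARD, the most widely expressed PPAR in mammals, was measured well above background in every channel, with raw intensities from 581 to 1706. Its ratios were 0.24, 0.18, -0.06 and -0.21 in replicates 1 to 4. The replicates thus fell evenly on both sides of 0, and the mean was 0.04 ± 0.21. PPARA, the receptor that drives fatty acid oxidation in liver, had raw intensities of 72.8 to 173 and was not well above background in any of the 16 channels, so no ratio is given for it. RXRA, the shared partner of all PPARs, lay close to background, above it in 7 of 8 glucose channels and 7 of 8 control channels. Its ratios of 0.03, -0.05, 0.07 and 0.15 gave a mean of 0.05 ± 0.08, the smallest SD among the 10 tested member probes. That SD does not include the difference within pairs, since the 2 arrays of every replicate had opposite signs. In each, the array with glucose in Cy5 was above 0 and the one with glucose in Cy3 below, the direction of the dye effect given below. The arrays of a pair differed by up to 0.67, with 4 arrays above 0 and 4 below.

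The dye effect, which is independent of the glucose contrast, was tested for the member probes over all 8 arrays. It passed an adjusted p of 0.05 (limma, Benjamini-Hochberg over all tested probes) for 2 of the 10 member probes, where 41.9% of all tested probes passed. RXRA was brighter in Cy5 by 0.20 on the log2 scale (adjusted p = 0.00328). One CD36 probe, EMBV3_26275, was brighter in Cy3, with a log2 Cy5/Cy3 value of -0.45 (adjusted p = 4.9e-04). With median centring in place of loess 1 member probe passed instead of 2.

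OLR1, the lectin-like receptor for oxidized low-density lipoprotein (LOX-1), had the highest mean ratio and one of the widest spreads. In replicate 1 the raw intensity was 1711 for glucose against 597 for control on one array, and 2883 against 567 on the array with the dyes exchanged. In replicate 3 it was 907 against 479, and 1451 against 362. The glucose pool was the brighter one on all 4 of these arrays, in either dye, with every channel above background. In replicate 2 the raw intensity was 126 for glucose against 198 for control on one array, and 136 against 137 on the other. The glucose channel was below the negative control threshold on both arrays and the control channel just above it. In replicate 4 it was 183 for glucose against 128 for control, and 255 against 206. Here the glucose channel was above the threshold on both arrays and the control channel below it on both.

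**Figure D2:**
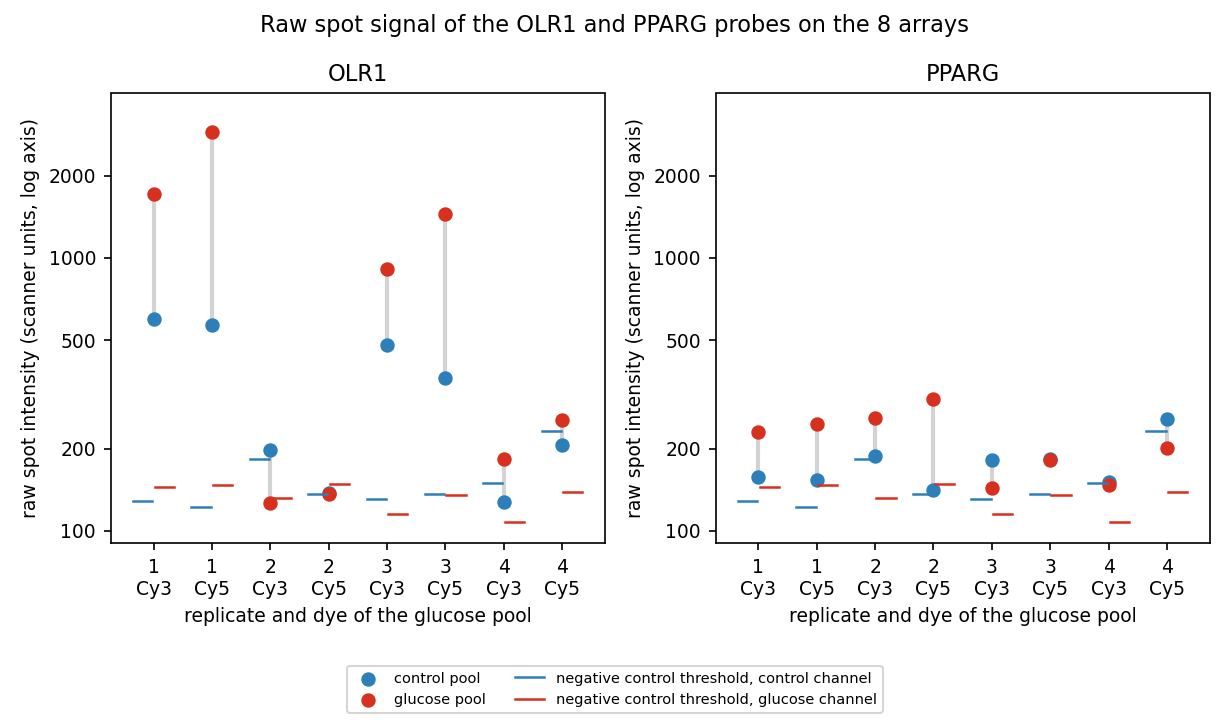
Raw spot intensity (scanner units, log axis) of the OLR1 and PPARG probes in the glucose channel (red) and the control channel (blue) of each of the 8 arrays, with each channel's negative control threshold as a short line. OLR1 is far above the thresholds in replicates 1 and 3 and near them in replicates 2 and 4, while PPARG lies at 141 to 305 throughout. Raw intensities are not corrected for dye or channel brightness.

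The OLR1 ratios were 1.50, -0.35, 1.84 and 1.25 in replicates 1 to 4, with a mean of 1.06 ± 0.97 (SD, n = 4), or 2.08-fold. The glucose pool was brighter in 3 of 4 replicates and on 6 of 8 arrays. The SD was almost as large as the mean, and 99.5% of tested probes had a smaller SD. Within their replicates, the ratios exceeded those of 99.88%, 2.67%, 99.87% and 98.69% of tested probes. The ratios of the replicates with a channel below the threshold moved with the processing. In replicate 4 the ratio was 1.79 with a smaller background offset of 10, 0.92 without background correction, 0.87 from median spot intensities and 0.84 with scaling between arrays. In replicate 2 it lay between -0.55, with the smaller offset, and -0.08, from median spot intensities. Scaling between arrays also moved replicate 1, to 2.13. Left out in turn, the replicates gave means between 0.80 and 1.53, and replicates 2 and 4 alone gave 0.45.

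The level of OLR1 differed between control pools as well as between groups. On the normalized log2 scale, the control pools had channel levels of 9.33, 7.05, 8.46 and 6.62 in replicates 1 to 4, and the glucose pools 10.83, 6.69, 10.30 and 7.88. Pools of replicates 1 and 3 were higher than those of replicates 2 and 4 in both groups, and the groups overlap. The control levels ranged over 2.70 on the log2 scale, or 6.52-fold, which was more than for 99.9% of tested probes. The lowest of them, in replicate 4, came from channels below the negative control threshold on both arrays, so the size of this range is uncertain. Both control pools of replicates 1 and 3 stood above both glucose pools of replicates 2 and 4.

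Some markers of mesenchymal cells were, like OLR1, high in replicates 1 and 3, but the list as a whole did not follow OLR1 in replicate 4. The median ratios over 11 markers, all tested, were 0.86, -0.08, 1.34 and -0.11 in replicates 1 to 4. Of the 11, 5 had a ratio above 1 in both replicates 1 and 3, against 0 in replicate 2 and 1 in replicate 4. The intermediate filament gene VIM had ratios of 2.26, 0.30, 2.85 and -0.12, and the proteoglycan gene LUM had 1.79, -0.24, 4.53 and 1.53. The secreted binding protein gene IGFBP7 had 2.06, -0.10, 2.53 and 0.23. These 3 are the markers of the list at 2-fold or more in mean ratio, with means of 1.32 ± 1.45, 1.91 ± 1.97 and 1.18 ± 1.31. At the other end, 3 of the 11 had means below 0. The smooth muscle gene TAGLN was below 0 in all 4 replicates, with a mean of -0.09 ± 0.05. It lay close to background, above it in only 4 of 8 glucose and 5 of 8 control channels. The fibronectin gene FN1 had -0.65 in replicate 1 and a mean of -0.05 ± 0.42, and the collagen gene COL1A1 had -0.07 ± 0.20. These 3 were named after their values were seen. VIM, LUM and IGFBP7 were high in replicates 1 and 3, and in replicate 4 LUM stood with OLR1 while VIM and IGFBP7 were near 0. In 5 of the 11 markers the control pools of replicates 1 and 3 were both above those of replicates 2 and 4, as for OLR1. The median level of the list was 7.39 to 9.97 in glucose pools and 7.48 to 8.18 in control pools, and 8 of the 11 markers were above background in all 16 channels. Whether such cells were in the pools, and whether they had a part in the OLR1 ratio, was not tested.

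**Figure D3:**
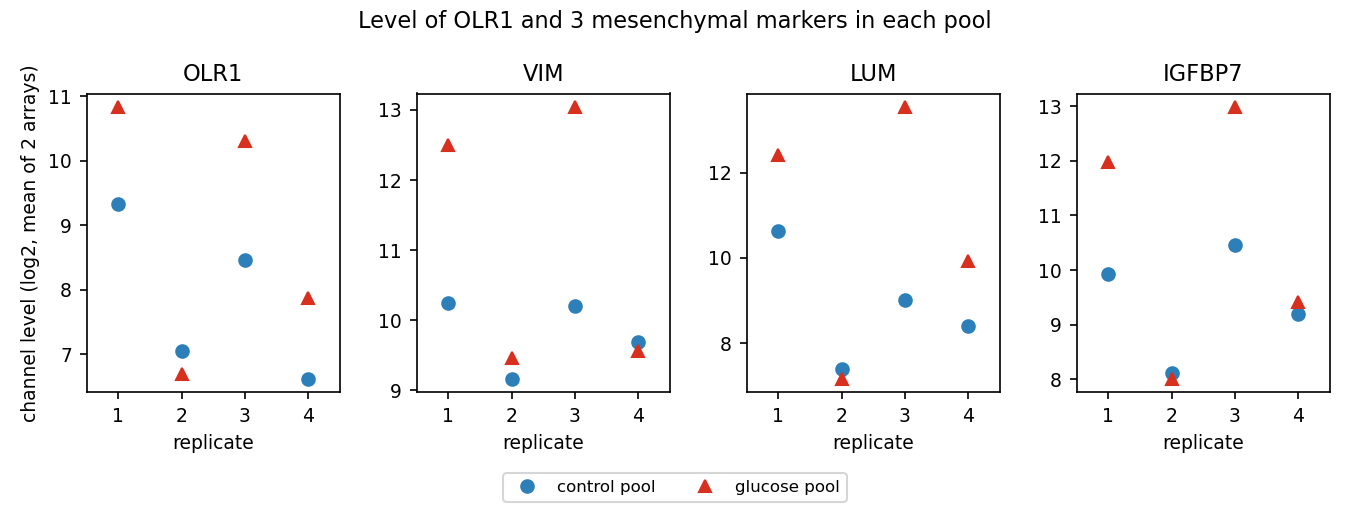
Normalized channel level (log2, mean of the 2 arrays) of OLR1 and of 3 mesenchymal markers in each glucose pool (triangles) and control pool (circles), by replicate. For OLR1, replicates 1 and 3 have control pools at 9.33 and 8.46, above the 7.05 and 6.62 of the other replicates, and VIM, LUM and IGFBP7 glucose pools are highest in replicates 1 and 3. Levels of different genes are not comparable.

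OLR1, CD36 and SCARB1 are also made by macrophages, endothelium and adipocytes. The macrophage and blood cell list had a median ratio of 0.03 over 8 of 11 markers tested, with replicate medians between -0.06 and 0.09. Within that list AIF1, above background in all 16 channels, had -0.08, 0.60, -0.88 and 1.03 in replicates 1 to 4. Endothelial markers had a median of -0.04 over 7, and adipocyte markers -0.04 over 4 of 5. Most of these probes lay near background: 4, 2 and 0 of them were above it in all 16 channels. For cumulus and granulosa cells, which surround the oocyte, 13 of 14 markers were tested and their median was 0.08. Of these, 9 had means above 0 and 4 below, and the replicate medians lay between -0.08 and 0.07. Single markers shifted more in 1 replicate. PTX3 and INHBA had 1.37 and 1.22 in replicate 3, and PTGS2 had -0.70 in replicate 3 and 2.60 in replicate 4. These, and AIF1 above, were named after their values were seen.

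By likeness of pattern, the named genes closest to OLR1 were TNN (Pearson r of 0.958), TALDO1 (0.955) and PLAT (0.951) over the 8 arrays, among 4170 probes with a range of at least 1. TNN, the matrix glycoprotein tenascin N, had ratios of 1.41, -0.16, 1.95 and 0.87. PLAT, tissue plasminogen activator, had 1.77, -0.10, 2.08 and 1.03. Both thus matched OLR1 in size as well as in order, whereas TALDO1, a pentose phosphate enzyme, had only 0.26, -0.53, 0.25 and 0.04. For PPARG the closest were RTN1 (0.985), MTPN (0.963) and TKDP1 (0.959). These shared the peak in replicate 2 but not the level, with mean ratios of -0.21 ± 0.44, -0.11 ± 0.52 and 0.03 ± 0.96. The arrays of a pair share their pools, so these correlations rest on 4 pool pairs.

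CD36, the fatty acid translocase of the cell surface, was measured by 3 probes that disagreed. EMBV3_07474 had ratios of 0.32, 0.39, 0.66 and 0.14, with a mean of 0.38 ± 0.22 (SD, n = 4), or 1.30-fold. It was the member probe above 0 in all 4 replicates, and after normalization was above 0 on 8 of 8 arrays. The raw intensity was nonetheless higher for control on 1 array of replicate 2, at 159 against 143 for glucose. The same held on both arrays of replicate 4, at 159 against 121 and 231 against 148. In replicate 2 the control channel was below the threshold on both arrays. It was dim, with raw intensities of 119 to 299, above background in 8 of 8 glucose channels but 5 of 8 control channels.

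The brightest CD36 probe, EMBV3_26275, had raw intensities of 1026 to 3147 and ratios of 0.05, 0.25, 0.23 and -0.56, with a mean of -0.01 ± 0.38. Replicates 1 to 3 were above 0 and replicate 4 below. Its dye effect, given above, separated the arrays of a pair by up to 1.13, more than any of its replicate ratios. The other dim probe, EMBV3_38397, had 0.22, -0.13, 0.22 and -0.30, with a mean of 0.00 ± 0.26. Without replicate 4 the means of EMBV3_26275 and EMBV3_38397 were 0.18 and 0.10, so that all 3 probes were then above 0. Without replicate 1, 2 or 3 the mean of EMBV3_26275 was -0.02, -0.09 or -0.09. That of EMBV3_38397 was -0.07, 0.04 or -0.07. Which part of the transcript each probe reads is not known here.

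**Figure D4:**
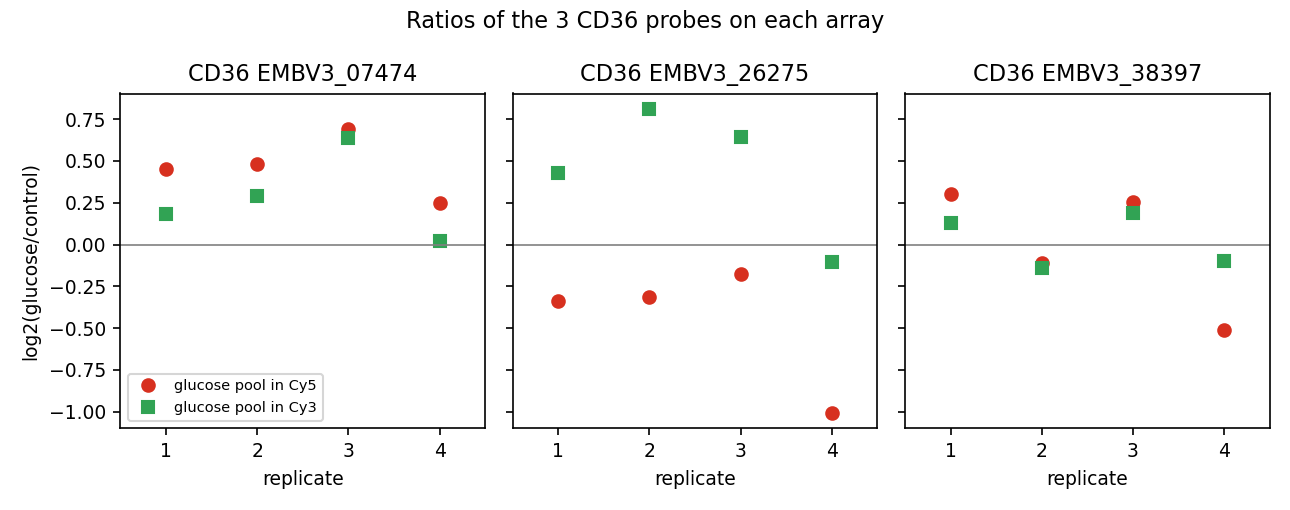
Log2(glucose/control) of the 3 CD36 probes on each array, by replicate, with the dye of the glucose pool shown by symbol. EMBV3_07474 is above 0 on all 8 arrays, whereas for EMBV3_26275 the arrays with glucose in Cy3 lie above those with glucose in Cy5 in every replicate, by up to 1.13.

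SCARB1, the receptor that takes cholesteryl ester from high-density lipoprotein, had ratios of 0.17, -0.14, 0.02 and -0.14. These lay on both sides of 0, with a mean of -0.02 ± 0.15, and all channels were above background.

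The fatty acid binding proteins carry fatty acids through the cytosol, and their genes differed most in replicate 4. FABP3, the heart form, had ratios of -0.53, 0.02, 0.14 and -1.02. The control pool was brighter in replicates 1 and 4, and replicates 2 and 3 were close to 0. The mean was -0.35 ± 0.53 (SD, n = 4), 1.27-fold lower after glucose, and -0.12 without replicate 4. Raw intensities of 832 to 1929 put it above background in all channels.

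FABP5, the epidermal form, which delivers ligands to PPARD in mouse and human cells, had ratios of -0.21, 0.12, -0.76 and 1.53. In replicate 3 the raw intensity was 421 for glucose against 1223 for control, and 611 against 961 with the dyes exchanged. In replicate 4 it was 1142 against 438, and 1747 against 560. These replicates thus went opposite ways on both of their arrays, with ratios above those of 0.36% and 99.53% of tested probes. The mean was 0.17 ± 0.98 (SD, n = 4), and -0.28 without replicate 4. As for OLR1, 99.5% of tested probes had a smaller SD than FABP5, against 93.4% for FABP3. Replicate 4 was also the most variable one across all tested probes, with ratios whose SD was 0.42. The SDs of the other replicates were 0.19, 0.20 and 0.23.

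For the other genes of the pathway the list medians lay between -0.03 and 0.06. Of 93 genes in 5 lists, 71 were tested and 0 were called by limma, as in the whole table. PPAR partners and coregulators had 5 genes above 0 and 5 below among 10 tested of 15, with a median of 0.01. NRIP1, a corepressor, had the highest mean there, 0.25 ± 0.14, with all 4 replicates above 0 and 1 of its 2 probes on the other side. PPAR target genes had 9 above and 10 below among 19 tested of 25, with a median of -0.03. ACADM, the medium-chain acyl-CoA dehydrogenase, had 0.05 ± 0.09, and PEX11A, a factor in peroxisome division, had -0.16 ± 0.17. Each had 1 sign in all 4 replicates.

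Genes for fatty acid transport and activation had 9 above 0 and 8 below among 17 tested of 21, with a median of 0.05. The transport proteins SLC27A1 and SLC27A6 had 0.10 ± 0.06 and 0.05 ± 0.04. Scavenger and lipoprotein receptors other than the members had 7 above and 5 below among 12 tested of 18, with a median of 0.06. SCARB2, a lysosomal membrane protein related to CD36, had 0.25, 0.06, 0.43 and 0.83 in replicates 1 to 4. Its mean was 0.39 ± 0.33, with 2 of its 3 probes above 0. STAB1, a scavenger receptor of sinusoidal endothelium and macrophages, had 0.10 ± 0.05. Lipid droplet and triglyceride genes had 7 above and 10 below among 17 tested of 19, with a median of -0.02. MGLL, the monoglyceride lipase, had 0.09 ± 0.05, close to background and with its other probe below 0.

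Over all 13286 named genes tested, 52.1% had a mean ratio above 0 and the median was 0.005. The shares above 0 in the 5 lists were 50%, 47.4%, 52.9%, 58.3% and 41.2%, in the order given here. In all named genes tested, 5.19% were above 0 in all 4 replicates and 4.48% below.

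**Figure D5:**
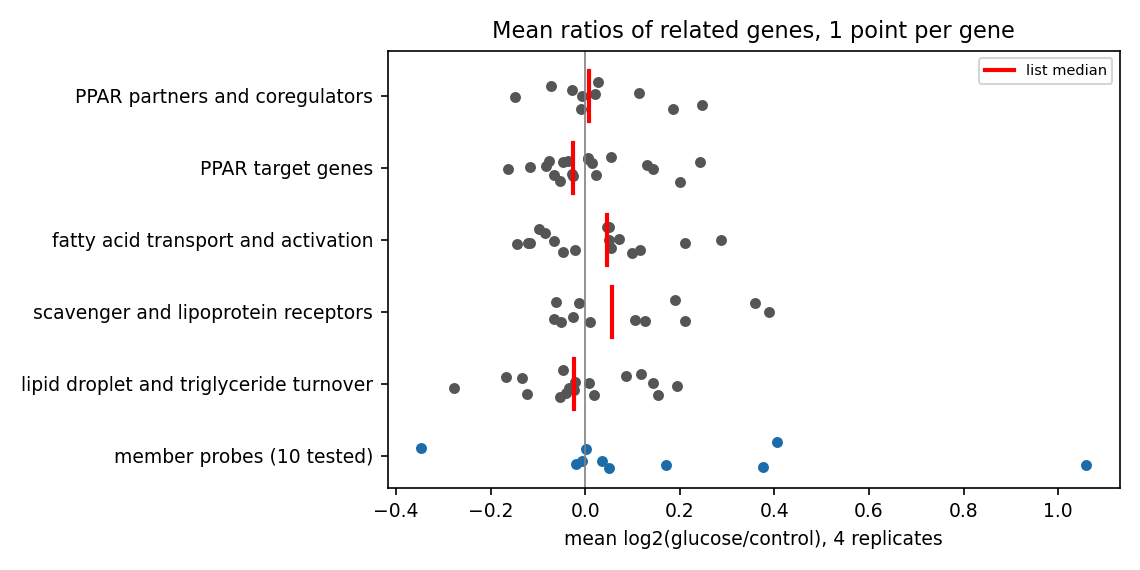
Mean log2(glucose/control) over 4 replicates, with 1 point for each tested gene of the 5 pathway lists and for each of the 10 tested member probes, and with the list median as a red line. The list medians lie between -0.03 and 0.06, while the member probes reach from -0.35 for FABP3 to 1.06 for OLR1.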

How the data were processed

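RNA from pools of 10 blastocysts was amplified in 2 rounds, labelled chemically with either dye and put on 8 Agilent arrays, per the labels' protocols. The deposited scanner tables hold spot intensity and local background, not normalized, per the file headers. A further, nearly blank scanner channel on some arrays was not used. Limma is the tool named in the submitters' processing notes. The deposited table of the series gives a score whose unit and normalization the authors do not state. Its column medians were 0.9985, 0.9992, 0.9996, 0.9999, 0.9993, 0.9981, 0.9990 and 1. Read as log2 glucose signal over log2 control signal, which is inferred, the scores gave ratios that correlated with the scanner ratios at 0.984 to 0.998 over brighter probes, glucose over control. They served as an alternative.

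Arrays with the same number in the 2 sets hold opposite dyes and were averaged as 1 replicate. Their ratios correlated at 0.718, 0.764, 0.839 and 0.906 after removal of the dye effect, against at most 0.211 with any other number. The labels do not say whether the pools came from separate batches, so p-values measure only the spread between these pools.

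In R 4.3.3 with limma 3.58.1, mean intensities were corrected by normexp (offset 50) and normalized within arrays by loess. Ratios shrink near background because of the offset. Probes that on at least 4 arrays exceeded, in one channel or both, the median plus 2 robust SDs of that channel's negative controls were fitted with lmFit and eBayes, two-sided, after the fit was tested on simulated data. The robust SD was used because outlying control spots raised the mean plus 2 SD to 1318 in 1 channel. The dye term was fitted on 8 arrays with the array number as a random block. Levels per pool are channel values after Aquantile normalization. Lists use the brightest probe of each gene.

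The platform annotation names 21790 probes with 1 symbol, and 22004 are counted as unnamed here, which would include any with several symbols. All 9 members match a current RefSeq symbol (ARS-UCD2.0). The array's build is not named, so coordinates are left out. The genes and lists were chosen with earlier results of these data known. Named besides the 9 are, per list, up to 2 genes with the highest and 2 with the lowest mean among those with 1 sign in all 4 replicates, markers at 2-fold or more, and the 3 genes most like PPARG and OLR1. Alternatives covered background, spot statistic, normalization, filter, array set, weights, pairing and each replicate.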

Additional observations from a re-analysis of the deposited data

How the results depend on the processing

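No probe passed the adjusted threshold in any of 18 alternatives. The lowest adjusted p was 0.367 with a replicate block over 8 arrays (0 probes) and 0.065 with no replicate block, the arrays taken as independent (0 probes). It was 0.723 with array weights. No call on the 10 member probes changed with the pairing. Median centring instead of loess left 1 member probe with a dye effect past the threshold, where loess gave 2; the cause was not tested. OLR1, PPARG, RXRA and CD36 EMBV3_07474 stayed above 0 in all 13 alternatives, at 0.45 to 1.53, 0.22 to 0.68, 0.003 to 0.10 and 0.26 to 0.51. RXRA did so only in its mean, since 4 of its 8 arrays, those with glucose in Cy3, were below 0. FABP3 stayed below 0, at -0.51 to -0.12. FABP5 was below 0 in 2 of 13 (-0.02 with scaling between arrays, -0.28 without replicate 4). The other 4 member probes crossed 0. List medians lay between -0.08 and 0.12 in 15 alternatives, above 0 in all 15 for scavenger and lipoprotein receptors and below 0 in 14 for PPAR targets. Taking replicates 2 and 4 alone, and the mean plus 2 SD of the negative controls (32935 probes), were chosen after seeing the data. The dim PPARG, RXRA and CD36 probes, OLR1 in replicates 2 and 4, and PPARA are limited by signal over background.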

Other observations

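The 8 nearest genes to each of OLR1, PPARG, FABP5, FABP3 and CD36 in the RefSeq gene order (ARS-UCD2.0) were looked up after the values of the members were seen. Of these, 4, 2, 6, 6 and 3 were tested, and 2, 1, 3, 4 and 2 were above background in all 16 channels. OLR1 sits among genes for C-type lectin receptors. CLEC1A, above background throughout, had ratios of 0.11, 0.09, -0.23 and 0.01 in replicates 1 to 4, against 1.50, -0.35, 1.84 and 1.25 for OLR1. GABARAPL1, an autophagy gene on the other side and also above background throughout, had 0.30, -0.50, 0.03 and 0.44. CLEC7A and CLEC1B had means of 0.01 ± 0.05 and -0.06 ± 0.10 (SD, n = 4), but CLEC7A was above background in only 6 of 8 glucose and 3 of 8 control channels, and CLEC1B in 5 of 8 of each.

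FABP5 lies in a row of fatty acid binding protein genes. FABP9, the testis form, was above background in all channels and had 0.02 and -0.10 in replicates 3 and 4, against -0.76 and 1.53 for FABP5. FABP4, the adipocyte form, had a mean of -0.05 ± 0.07 but was above background in only 4 of 8 glucose and 3 of 8 control channels. ZBTB10, a zinc finger gene on the other side of FABP5, had 0.41 and -0.75 in replicates 3 and 4, opposite in sign to FABP5. NKAIN1, at position 3 from FABP3 in the gene order, had -0.49, 0.39, -0.35 and -0.90. It was low in replicates 1 and 4 as FABP3 was (-0.53 and -1.02), and also in replicate 3, where FABP3 had 0.14. The other FABP3 neighbours above background throughout differed from it in replicate 1. ZCCHC17, next to FABP3, had -0.06 and 0.20 in replicates 1 and 4. SERINC2, next to it on the other side, had 0.25 and -0.57, and SNRNP40 had 0.10 and -0.57. The neighbours of PPARG had means of -0.0006 ± 0.11 (MKRN2, above background in only 3 of 8 glucose and 1 of 8 control channels) and 0.04 ± 0.20. Those of CD36 had means between 0.08 and 0.17. The highest, 0.17 ± 0.77 for LOC782609, came from 1.32 in replicate 4, with replicates 1 to 3 at -0.35, -0.23 and -0.08. GNAI1 had 0.15 ± 0.12, and SEMA3C had 0.08 ± 0.20 but was above background in only 3 of 8 control channels. These values are a description and were not tested.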
